A study of Saccharomyces cerevisiae with 8 samples.

Results

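The genes described here are the 10 yeast genes of gluconeogenesis, the glyoxylate cycle and carboxylate uptake: the enzyme genes FBP1, PCK1, MDH2, ICL1 and MLS1, the transporter genes JEN1, ADY2 and SFC1, and the regulator genes CAT8 and SIP4. They were chosen by name for their known function, with earlier results of these data known. They are 10 of the 6227 systematic gene names on the array. Each was measured by 1 probe printed as 2 spots. All 10 were among the 5816 genes tested. FBP1, PCK1, ICL1, MLS1, JEN1, ADY2, SFC1, CAT8 and SIP4 were higher in the isopropanol cultures, and MDH2 was lower.

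Gluconeogenesis runs glycolysis backwards, so that cells growing on ethanol, acetate, lactate or other carbon sources without sugar can make the hexose phosphates they need. The glyoxylate cycle supplies it: acetyl units enter, the decarboxylation steps of the tricarboxylic acid cycle are bypassed, and C4 acids leave for oxaloacetate and phosphoenolpyruvate. In Saccharomyces cerevisiae glucose represses the genes of both routes and of carboxylate uptake, and when glucose is gone the kinase Snf1 and the activators Cat8 and Sip4 switch many of them on. After glucose returns, the gluconeogenic enzymes are also removed as proteins, through the Gid ubiquitin ligase.

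The study grew the diploid laboratory strain BY4743 in YPD, a rich glucose medium, with no isopropanol (control, 4 arrays) or with 40 g/l isopropanol (4 arrays). Cultures of 120 ml were shaken at 130 rpm for 3 h at 30 °C, and their total RNA, labelled with the dye Cyanine 3, was measured on 1-colour Agilent arrays. Both groups share the strain, the medium, the culture time and the labelling. The sample descriptions of the isopropanol arrays write the dose in mg/l where the other labels write g/l.

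Well above background were 92.9% ± 0.65 (SD, n = 4) of the yeast spots in the control group and 94.98% ± 1.01 (SD, n = 4) in the isopropanol group. The 75th percentile of the processed signal averaged 1563 ± 171 (SD, n = 4) without isopropanol and 2259 ± 307 (SD, n = 4) with it. Correlations between arrays over the 5816 genes tested were between 0.996 and 0.999 within a group and between 0.963 and 0.969 across groups. The genes deleted in BY4743 were near background: URA3 was well above it on 0 of 16 spot readings and LEU2 on 1 of 16. All control arrays were on 1 slide and all isopropanol arrays on another, so that treatment and slide cannot be told apart. No scan held arrays of both groups either, so treatment and scan cannot be told apart. Nothing in the labels says that the arrays of a group came from separate cultures, so the p-values rest on array-to-array spread that may be technical only. The difference between the groups was broad: 4524 of 5816 genes (77.8%) changed at an adjusted p under 0.05 in limma, 2771 of them (47.6% of genes tested) higher and 1753 (30.1%) lower. Higher calls made up 61.3% of all calls, against 47.8% after quantile normalization, 45.1% after median centring and 99.6% on the spike-in scale.

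Against that background, 9 of the 10 genes rose and 1 fell. SIP4 entered the test only through its isopropanol arrays, where it is high; with genes required to be above background on all arrays, 8 rose and 1 fell. On every one of the 10, the 4 isopropanol arrays lay wholly above or wholly below the 4 control arrays, which held for 73.2% of all genes tested. The median change of the 10 was 0.90 log2, and that of all genes was 0.11. ICL1, MLS1, JEN1 and SIP4 rose at least 2-fold, a size reached upwards by 7.43% of all genes. Values below are log2 processed signal relative to the array's 75th percentile, given for replicates 1 to 4, and changes are isopropanol minus control on that log2 scale with limma's p adjusted over all 5816 genes. A signal depends on its probe, so levels are compared between arrays and not between genes.

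**Figure D1:**
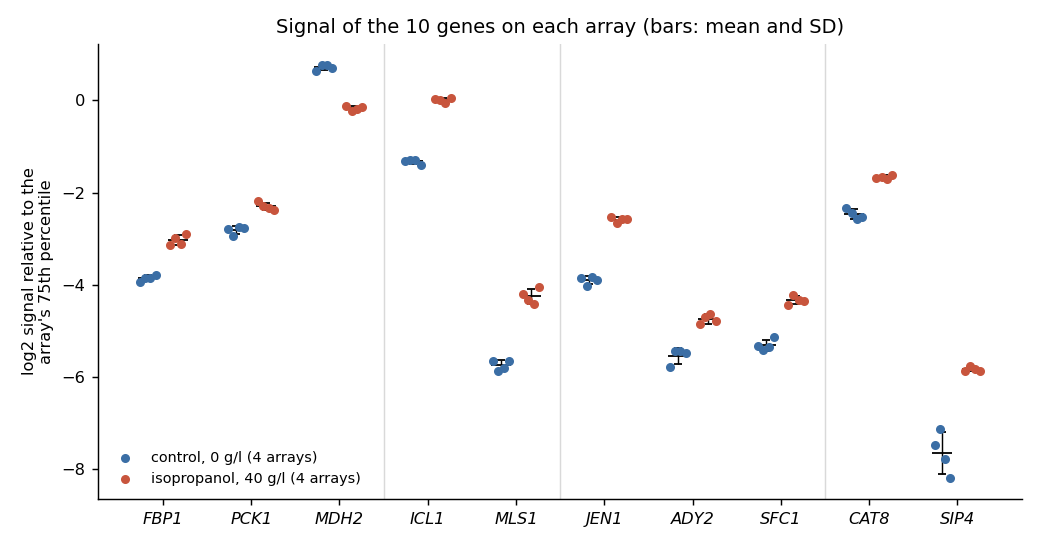
Log2 signal relative to the array's 75th percentile (vertical axis) of each of the 10 genes on the 4 control and the 4 isopropanol arrays; points are arrays and bars are means with SD. The isopropanol arrays lie above the control arrays for 9 genes and below them for MDH2, and the control arrays of SIP4 are spread most widely, from -8.19 to -7.13.

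Of the gluconeogenic enzymes, FBP1 (YLR377C) and PCK1 (YKR097W) rose while MDH2 (YOL126C) fell. FBP1 encodes fructose-1,6-bisphosphatase, which catalyses the step of gluconeogenesis that opposes phosphofructokinase. Its signal was -3.93, -3.85, -3.86 and -3.78 on the control arrays and -3.13, -2.98, -3.12 and -2.90 on the isopropanol arrays. The highest control array was thus below the lowest isopropanol array, and FBP1 was 1.77-fold higher (log2 change 0.82, SE 0.06, 95% confidence interval 0.69 to 0.96, adjusted p = 6.66e-07).

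PCK1 encodes phosphoenolpyruvate carboxykinase, which makes phosphoenolpyruvate from oxaloacetate and commits carbon to gluconeogenesis. Its signal was -2.78, -2.93, -2.75 and -2.76 in the controls and -2.19, -2.30, -2.32 and -2.38 with isopropanol. The groups did not overlap, and the rise, 1.42-fold, was the smallest among the 9 genes that rose (log2 change 0.51, SE 0.06, interval 0.38 to 0.63, adjusted p = 1.46e-05). The PCK1 call was lost with normexp background correction and quantile normalization, where the change was 0.16 (adjusted p = 0.0665).

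MDH2 encodes the cytosolic malate dehydrogenase, which turns the malate of the glyoxylate cycle into oxaloacetate for PCK1. Its signal was 0.64, 0.76, 0.76 and 0.70 on the control arrays and -0.13, -0.24, -0.19 and -0.15 on the isopropanol arrays. All control arrays were above all isopropanol arrays, opposite to the other 9 genes. MDH2 was 1.85-fold lower (log2 change -0.89, SE 0.04, interval -0.99 to -0.79, adjusted p = 4.32e-08). This fall is relative to the array's 75th percentile: on a scale set by the arrays' spike-in probes, where the median of all genes rose by 1.27, MDH2 had a change of 0.27 (adjusted p = 0.543). On isopropanol replicate 1 those probes read -1.76 log2 relative to the 75th percentile. The other isopropanol arrays lay from -0.24 to 0.00082 and the controls from 0.40 to 0.99, and without that array the MDH2 change on this scale was -0.15 (adjusted p = 0.463) beside a median of 0.86.

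Both enzymes that are particular to the glyoxylate cycle rose more than 2-fold. ICL1 (YER065C) encodes isocitrate lyase, which splits isocitrate into succinate and glyoxylate. The control arrays read -1.31, -1.28, -1.30 and -1.40, and the isopropanol arrays read 0.027, 0.0015, -0.063 and 0.061. The 2 groups were far apart compared with their spread (SD 0.05 in each), and ICL1 was 2.51-fold higher (log2 change 1.33, SE 0.04, interval 1.23 to 1.43, adjusted p = 2.39e-09), the smallest adjusted p among the 10 genes. MLS1 (YNL117W) encodes malate synthase, which joins glyoxylate and acetyl-CoA to malate. Its signal was -5.64, -5.87, -5.81 and -5.64 in the controls and -4.21, -4.34, -4.41 and -4.05 with isopropanol, with no overlap. MLS1 was 2.81-fold higher (log2 change 1.49, SE 0.08, interval 1.30 to 1.68, adjusted p = 1.02e-07).

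All 3 transporter genes rose. JEN1 (YKL217W) encodes the plasma membrane permease for lactate and pyruvate. Its control arrays read -3.85, -4.03, -3.83 and -3.90, and its isopropanol arrays read -2.53, -2.67, -2.58 and -2.57. The groups did not overlap, and JEN1 was 2.49-fold higher (log2 change 1.32, SE 0.05, interval 1.20 to 1.43, adjusted p = 9.37e-09). ADY2 (YCR010C) encodes the plasma membrane acetate transporter. Its signal was -5.79, -5.44, -5.44 and -5.48 in the controls and -4.86, -4.69, -4.63 and -4.78 with isopropanol. Control replicate 1 was the lowest array and no values overlapped, giving a 1.74-fold rise (log2 change 0.80, SE 0.08, interval 0.61 to 0.98, adjusted p = 9.75e-06). SFC1 (YJR095W) encodes the carrier of the mitochondrial inner membrane that exchanges succinate for fumarate and so takes up the succinate made by isocitrate lyase. It read -5.34, -5.41, -5.35 and -5.13 in the controls and -4.44, -4.21, -4.32 and -4.34 with isopropanol, again without overlap. SFC1 was 1.97-fold higher (log2 change 0.98, SE 0.07, interval 0.83 to 1.13, adjusted p = 4.51e-07).

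Both regulators rose. CAT8 (YMR280C) encodes a zinc cluster activator of gluconeogenic genes whose own transcription glucose represses. Its signal was -2.33, -2.45, -2.56 and -2.53 on the control arrays and -1.68, -1.67, -1.71 and -1.61 on the isopropanol arrays. The isopropanol arrays were all higher and closely grouped, and CAT8 was 1.74-fold higher (log2 change 0.80, SE 0.06, interval 0.68 to 0.92, adjusted p = 4.58e-07). SIP4 (YJL089W) encodes a related zinc cluster activator that interacts with the Snf1 kinase complex and is itself a target of Cat8.

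SIP4 was the dimmest of the probes. Its processed signal, in intensity units, was 9.53, 11.6, 7.55 and 4.48 on the control arrays and 41.4, 45.3, 42.2 and 30.9 on the isopropanol arrays. Only control replicate 2 was well above background among the controls, against all 4 isopropanol arrays, and the lowest signal that was well above background lay between 8.25 and 12.5 on the control arrays. The fitted log2 change of 1.81 (SE 0.18, interval 1.41 to 2.21, adjusted p = 6.73e-06) therefore rests on control values mostly at background. With the remaining 3 control arrays set no lower than each array's lowest signal well above background, the isopropanol mean was 2.55-fold higher (log2 1.35). The other 9 genes were well above background on all 16 of their spot readings.

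The change of a gene depended on its signal across the whole array, and most of the 10 genes are dim. When the genes tested were ordered by their mean signal and divided into 10 bins of equal size, the median change was 0.54 log2 in the dimmest bin and -0.29 in the brightest. All of the 10 genes but ICL1 and MDH2 lay in the 4 dimmest bins. By its rank among genes of like signal ICL1 was the most extreme of those that rose: in its bin, number 7 from the dim end, 7 of 581 genes rose at least as much. The shares were 8.76% for JEN1, 9.45% for CAT8 and 15.5% for MLS1. For SIP4 the share was 9.79% at its fitted change and 19.1% with the control arrays set to the limit given above. For FBP1, PCK1, SFC1 and ADY2 between 21.6% and 39.2% of the genes of like signal rose at least as much, so their rises were not large for probes of that brightness. For MDH2, 97.4% of the genes in its bin, itself included, had a change at least as high.

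**Figure D2:**
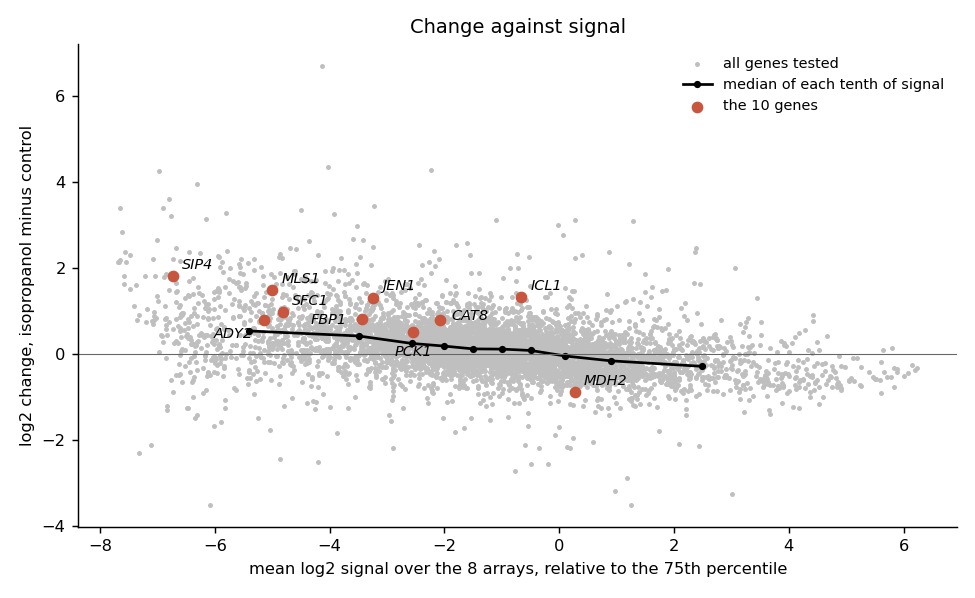
Log2 change, isopropanol minus control (vertical axis), against mean log2 signal over the 8 arrays relative to the 75th percentile (horizontal axis) for all 5816 genes tested (grey), the 10 genes (red) and the median of each signal bin (black line). The black line falls from 0.54 to -0.29, with ICL1 well above it and MDH2 well below it.

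The size of the rise of the dim genes differed between ways of processing. Quantile normalization gave changes of 1.26 for ICL1, 0.93 for JEN1, 0.90 for MLS1 and 0.59 for CAT8, but 0.23 for PCK1 and 0.22 for ADY2. With the scanner's local background subtracted in place of its own model, the changes ranged from 0.48 for PCK1 to 1.43 for MLS1 among the genes that rose, and MDH2 stayed at -0.89. Normexp correction with an offset of 50 brought JEN1 to 0.63, MLS1 to 0.39, FBP1 to 0.27, SIP4 to 0.23, SFC1 to 0.17 and ADY2 to 0.13, while ICL1 was at 1.16. With no offset ADY2, SFC1 and SIP4 had negative changes that did not pass the test. In that model the fitted background of control replicates 2 and 3 stood apart, with SDs of 287 and 30.5 intensity units against 0.198 to 3.52 on the other 6 arrays, and without those 2 arrays the 3 changes were 0.71, 0.65 and 0.83. Quantile normalization called 9 of the 10 genes higher and 1 lower, where 35.2% of all genes were called higher and 38.4% lower. Normexp with the offset called 8 and 1 (background 32.1% and 35.2%), and without it 2 and 1 (18.3% and 22.4%). The count of 2 rested on control replicates 2 and 3: without those 2 arrays normexp with no offset called 9 higher and 1 lower (39% and 23.7%). With the offset of 50, leaving out the same 2 arrays gave 7 higher and 1 lower. Of all 5825 genes then tested, 1561 were higher and 1733 lower. The spike-in scale called 9 and 0, with 77.8% of all genes higher and 0.327% lower, and without isopropanol replicate 1 again 9 and 0 (83.7% and 1.32%). ICL1 and CAT8 passed the test, higher, under all 25 alternatives tried.

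**Figure D3:**
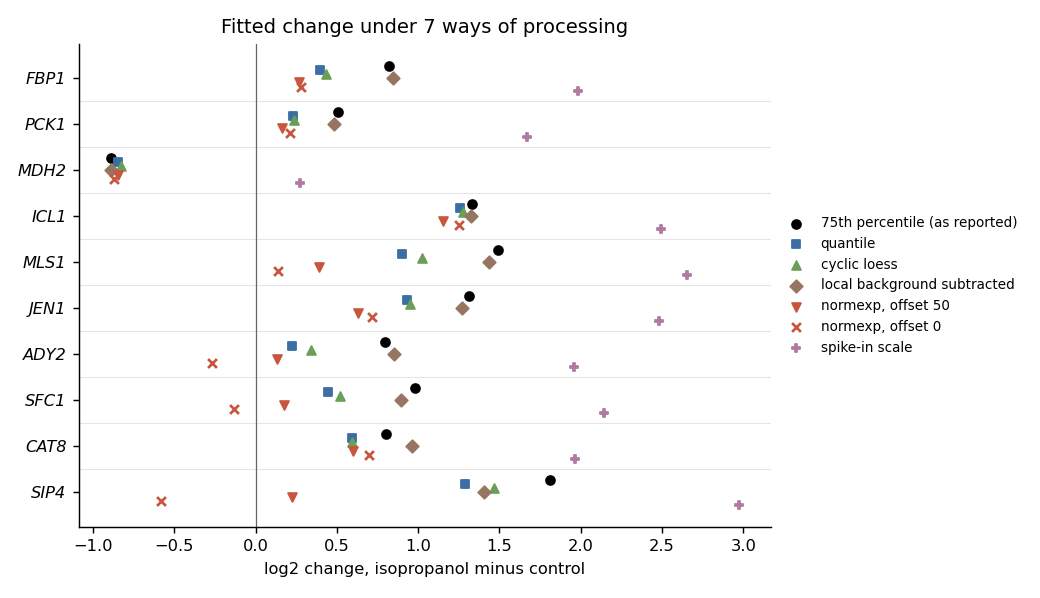
Log2 change, isopropanol minus control (horizontal axis), of each of the 10 genes under 7 ways of scaling or correcting the signal. ICL1 lies between 1.16 and 1.33 except on the spike-in scale (2.49), whereas ADY2, SFC1 and SIP4 cross zero with normexp without an offset and MDH2 crosses it on the spike-in scale.

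ICL1, MLS1, MDH2 and ADY2 have close relatives, and their changes were compared within each array, which cancels any scaling by 1 factor per array. It does not cancel a change that depends on signal, and the genes of a pair can differ in signal. Over 6 pairs the exact two-sided permutation test gave p = 0.0286 each, the smallest that 4 arrays against 4 allow, and 0.0286 after adjustment over the pairs. ICL1 rose more than ICL2, which encodes the mitochondrial methylisocitrate lyase, by 1.48 log2 (95% confidence interval 1.31 to 1.64). ICL2 itself changed by -0.15 (adjusted p = 0.0243), a call lost without control replicate 1 (-0.11, adjusted p = 0.0707) or isopropanol replicate 4 (-0.11, adjusted p = 0.0537). MLS1 rose more than DAL7, the malate synthase gene of allantoin breakdown, by 0.75 (0.45 to 1.06), although DAL7 also rose, 1.66-fold (adjusted p = 4.85e-07). With normexp at an offset of 50 no pair passed after adjustment. The MLS1 excess over DAL7 was 0.072 (adjusted p = 0.514, exact permutation test). The differences of ICL1 minus ICL2, MDH2 minus MDH1 and MDH2 minus MDH3 were 1.39, -0.89 and -0.91. Each kept the smallest possible p of 0.0286 before adjustment, with an adjusted p of 0.0571 (exact permutation test). At that smallest p, whether a pair passes depends on how many of the other pairs also reach it.

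MDH2 changed by 0.83 log2 less than MDH1, the mitochondrial malate dehydrogenase (interval of the difference -0.98 to -0.67), and by 0.72 less than MDH3, the peroxisomal one (-0.86 to -0.59). MDH1 had a change of -0.06 with an interval from -0.18 to 0.05 (adjusted p = 0.287). MDH3 was at -0.17 (adjusted p = 0.00352), with a positive sign after cyclic loess, with normexp at an offset of 50 and on the spike-in scale. ADY2 rose more than ATO3, a relative in the ammonium and acetate transporter family, by 0.92 (0.66 to 1.18). The 2 genes differ widely in signal. ADY2 lay in the dimmest bin, where the median change was 0.54, and ATO3 in bin number 9, where it was -0.16. After cyclic loess the difference of ADY2 minus ATO3 was 0.36. The difference of ADY2 minus ATO2, the other relative, was -0.62. ATO3 was itself at -0.12 (adjusted p = 0.0338), a call lost without control replicate 1, 3 or 4 or isopropanol replicate 1 or 2 (changes from -0.12 to -0.09, adjusted p from 0.0614 to 0.0936). ATO2 passed the background flag in 1 of 4 controls, so it was tested only through its isopropanol arrays and the ADY2 to ATO2 difference rests on control values near background. That difference did not pass with the authors' deposited log2 values (-0.35, adjusted p = 0.257, exact permutation test).

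**Figure D4:**
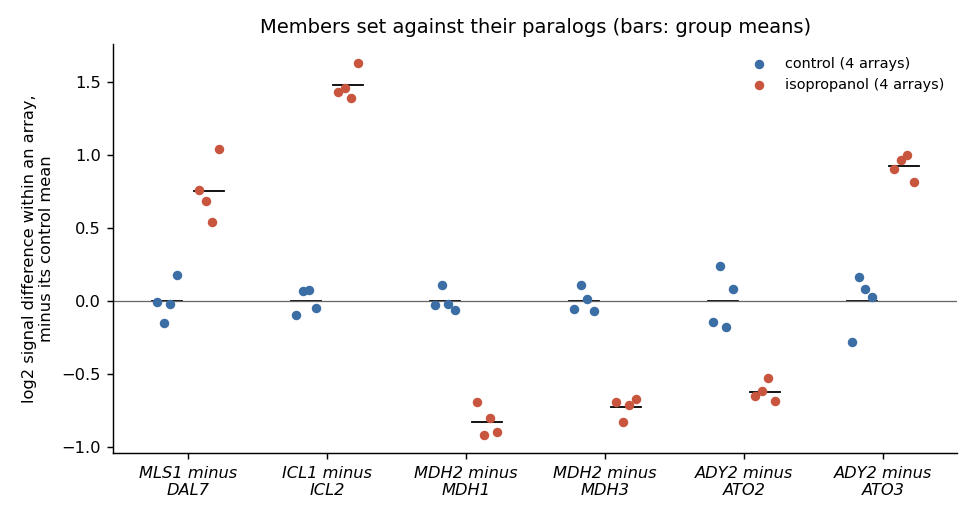
Difference in log2 signal between each gene and its relative within an array, minus the mean of that difference over the control arrays (vertical axis), for 6 pairs; points are arrays and bars are group means. In each pair the 4 isopropanol arrays lie wholly to one side of the 4 control arrays, above for MLS1, ICL1 and ADY2 minus ATO3, and below for MDH2 and ADY2 minus ATO2.

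Around the glyoxylate and gluconeogenic steps, 15 genes of partner enzymes were examined: 7 rose, 4 fell and 4 did not pass, with a median change of 0.10 against 0.11 for all genes. The shares over all genes were 47.6% higher and 30.1% lower. After quantile normalization 9 of the 15 rose and 3 fell (all genes 35.2% and 38.4%), with a median of 0.23 against -0.019. Before quantile normalization the list as a whole thus lay at the level of all genes. After it, the median of the list lay above that of all genes, so its standing depended on the scaling. Single steps moved far. CIT2, the peroxisomal citrate synthase that feeds the glyoxylate cycle, was 5.53-fold higher (log2 change 2.47, adjusted p = 2.58e-10). CIT3, a mitochondrial citrate and methylcitrate synthase, was 5.61-fold higher (2.49, adjusted p = 9.36e-10). ACO1, the aconitase that makes isocitrate from citrate, was 5.93-fold lower (-2.57, adjusted p = 3.53e-10), so the enzymes on either side of isocitrate, ACO1 and ICL1, moved in opposite directions. PYC1, a pyruvate carboxylase that makes oxaloacetate, was 2.96-fold higher (1.57, adjusted p = 1.52e-08). Its isoenzyme PYC2, named after its values were seen, was 1.40-fold lower (-0.49, adjusted p = 1.15e-06), with a positive change on the spike-in scale.

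Of 21 other genes of growth on carbon sources without sugar, 20 were tested (POT1 was too dim): 16 rose, 2 fell (ALD4 and ATO3) and 2 did not pass (IDP2 and CTA1), with a median change of 0.53. Of all genes 47.6% rose and 30.1% fell. POX1 and ATO2 entered the test only through their isopropanol arrays, where they are high. With genes required to be above background on all arrays, 18 were tested, of which 14 rose and 2 fell. Of all 5652 genes then tested, 2653 rose and 1740 fell. The ALD4 change was -0.20 (adjusted p = 0.0278, limma). Without control replicate 1, or without control replicate 4, no gene of this list was called lower. REG2, a regulatory subunit of the Glc7 phosphatase, was 4.14-fold higher, and POX1, the acyl-CoA oxidase of peroxisomal fatty acid breakdown, was 4.65-fold higher, with 3 of its 4 control values well above background. CRC1, the mitochondrial carnitine carrier, was 2.97-fold higher, and ATO2 was 2.67-fold higher. Among genes chosen after their values were seen, ADH2, the alcohol dehydrogenase that oxidises ethanol, was 2.20-fold higher (log2 change 1.14, adjusted p = 6.20e-08). ACS1, an acetyl-CoA synthetase, had a change of 0.39 (adjusted p = 0.000112) that turned to -0.07 after quantile normalization, and IDP2, the cytosolic isocitrate dehydrogenase, had one of 0.06 (interval -0.09 to 0.20, adjusted p = 0.449) that turned to -0.41 and passed there. After quantile normalization 10 genes of this list rose and 3 fell, where the shares over all genes were 35.2% and 38.4%.

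SFC1 encodes a mitochondrial carrier. Of 9 other genes examined, which encode mitochondrial carriers of organic acids or carrier subunits and are not all of 1 family, 6 rose, 1 fell (MPC1) and 2 did not pass. Their median was 0.58, and of all genes 47.6% rose and 30.1% fell. DIC1, the dicarboxylate carrier, was 3.1-fold higher (log2 change 1.63), OAC1, the oxaloacetate carrier, 1.75-fold, and the oxodicarboxylate carriers ODC1 and ODC2 1.68-fold and 1.54-fold. These counts were also 6 and 1 after quantile normalization (all genes 35.2% and 38.4%) and with normexp at an offset of 50 (32.1% and 35.2%).

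The Gid ubiquitin ligase, which marks Fbp1, Pck1, Icl1 and Mdh2 proteins for destruction when glucose returns, is encoded by genes of which 10 were listed and 9 tested (GID10 was too dim). The 9 tested genes rose, with a median of 0.56 and a range from 0.26 to 1.21, where 47.6% of all genes rose. Of the 9, 7 lay in the 3 dimmest signal bins, in which the median change of all genes was 0.54, 0.42 and 0.25. GID11 was 2.31-fold higher, GID8 2.05-fold, FYV10 1.76-fold and VID28 1.74-fold. After quantile normalization 6 rose and 1 fell (all genes 35.2% and 38.4%), and with normexp at an offset of 50, 4 rose and 1 fell (32.1% and 35.2%). Protein levels were not measured on these arrays.

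Of 18 genes that regulate the response to the carbon source, 10 rose, 7 fell and 1 did not pass, with a median of 0.21. These shares were near those of all genes, 47.6% higher and 30.1% lower. ADR1, an activator of ethanol and fatty acid oxidation genes, was 3.37-fold higher (log2 change 1.75). HAP4, the glucose-regulated subunit of the activator of respiratory genes, was 4.36-fold lower (-2.12, adjusted p = 4.50e-08), opposite in direction to CAT8 and SIP4. SIP2, a beta subunit of the Snf1 complex, was 1.73-fold higher, and HXK2, the hexokinase that also acts in glucose repression, was 1.70-fold lower. On the spike-in scale the HXK2 change was 0.40 and did not pass (adjusted p = 0.381, limma). It was not positive there without isopropanol replicate 1. After quantile normalization 6 genes of this list rose and 8 fell, beside 35.2% and 38.4% of all genes.

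**Figure D5:**
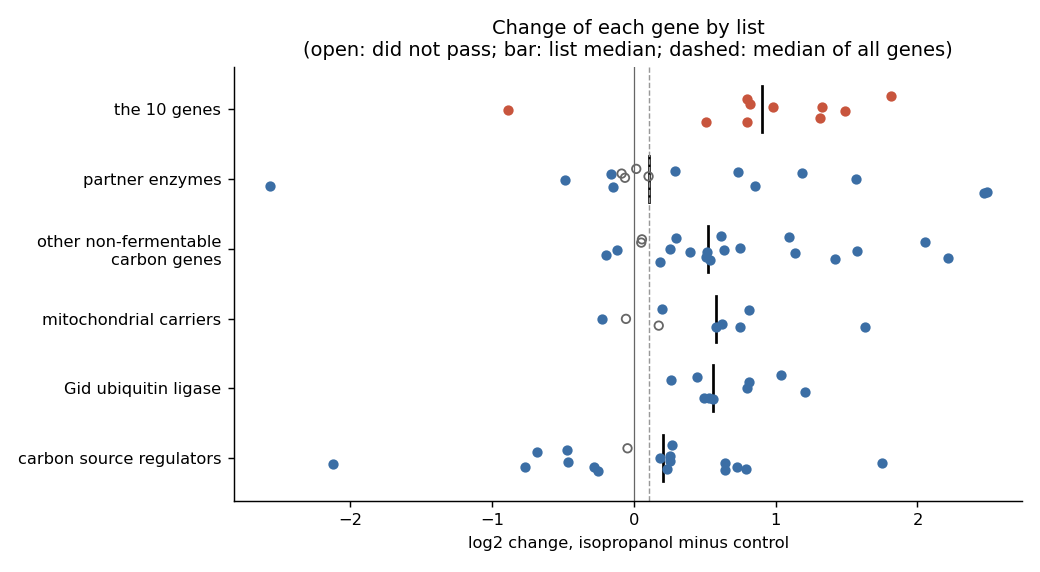
Log2 change, isopropanol minus control (horizontal axis), of each tested gene in the 10-gene set and the 5 companion lists (rows); open points did not pass the test, vertical bars are list medians and the dashed line is the median of all genes. The medians are 0.90 for the 10 genes, 0.10 for partner enzymes, 0.53 for other genes of carbon sources without sugar, 0.58 for mitochondrial carriers, 0.56 for the Gid ligase and 0.21 for regulators.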

How the data were processed

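Total RNA was hybridised to 4 control and 4 isopropanol 1-colour arrays, and groups and replicate numbers come from the sample titles. Agilent Feature Extraction 9.5.3.1 wrote the scanner files, per the file headers, and their processed signal is an intensity that was corrected for background and spatial trend within each array but not scaled between arrays. Raw median signal and local background are also intensity columns, per the file headers. The series matrix deposited by the authors holds log2 values. Set against the scanner values it is relative to each array's 75th percentile, in the same direction, with medians from -1.52 to -1.32 and rank correlations of 0.997 to 1.00. How else it was made is not given in the sources used here. Other deposited columns flag spots near background, non-uniform or saturated.

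Processed signal was taken to log2, minus the array's 75th percentile. Control spots and spots flagged as outliers were left out, and the 2 spots of a probe were averaged. The brightest probe stood for a gene. A gene was tested where all 4 arrays of 1 group or both flagged that probe as well above background. limma 3.58.1 (R 4.3.3; lmFit, eBayes) compared the groups, with Benjamini-Hochberg adjustment over 5816 genes and a threshold of 0.05. The fit was tested on simulated data in which 200 of 5816 genes changed. It recovered 72% of changes of 1.2-fold and at least 98% of those of 1.5-fold or more, and 6.09% of its calls were false. Far more genes were called in the real data, and no change that depends on signal was simulated, so the simulation does not cover those features. Symbols come from the RefSeq gene table, in which 5765 of 6256 probes found their systematic name, including those of all 85 listed genes. The number of arrays limits the precision. Alternatives covered scaling, background correction, the filter, scan and replicate blocks, and leaving out each array. Normexp used the raw median signal and local background.

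The members and the companion lists were chosen with earlier results of these data known. Beside the 10 members and their relatives in the 6 pairs, the text names from each companion list the up to 4 genes with the largest absolute change among those that passed and whose brighter group was above background throughout. Exceptions are said to be chosen after their values were seen, or are genes that make up a count of 5 or fewer, likewise named after their values were seen.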

Additional observations from a re-analysis of the deposited data

Results flagged for a closer look

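Each group of 4 arrays was examined for 1 array lying apart from the other 3, measured as the gap to the nearest array over the whole range (Dixon's ratio at its 95% critical value). Of 78 groups, 7 passed it, and chance alone gives about 3.9. Among the 10 genes only ADY2 did: control replicate 1 was at -5.79 against -5.48 to -5.44 on the other control arrays (ratio 0.889), and leaving it out moved the ADY2 change to 0.71. Of its relatives, ATO2 had isopropanol replicate 1 at -5.65 against -5.54 to -5.53 (0.870). ODC2 had control replicate 3 at 1.24 against 1.43 to 1.44 (0.961). HAP4 had control replicate 1 at 0.37 against 0.50 to 0.52 (0.859). ADR1 had isopropanol replicate 4 at -1.22 against -1.66 to -1.60 (0.873). ADH2 had replicate 2 apart in both groups, at -2.47 against -2.32 to -2.31 in the controls (0.922) and at -1.07 against -1.29 to -1.26 with isopropanol (0.872). In no case did the array reach the values of the other group.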

How the results depend on the processing

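Leaving out each array in turn gave between 4358 and 4544 changed genes, 9 higher and 1 lower among the 10 genes each time, 47 to 48 higher and 11 to 14 lower in the companion lists, and differences of 0.66 to 0.83 for MLS1 minus DAL7, 1.43 to 1.51 for ICL1 minus ICL2, -0.87 to -0.79 for MDH2 minus MDH1, -0.75 to -0.69 for MDH2 minus MDH3, -0.68 to -0.54 for ADY2 minus ATO2 and 0.83 to 0.98 for ADY2 minus ATO3. Same-numbered arrays of the groups deviated with correlations from -0.16 to 0.04. In both groups the replicate number was also the position of the array on its slide. Replicate 4 had the lowest 75th percentile of processed signal in each group, 1309 in the controls and 1801 with isopropanol. The correlations were taken after scaling to that percentile, so they do not settle whether same-numbered arrays are paired. With the replicate block 4390 genes changed, 9 of the 10 rose and 1 fell, and 48 companion genes rose and 13 fell, ATO3 being the one lost. Scan as a random block, added after seeing the data, had an estimated correlation of -0.21 and gave 4963 changed genes with the same 9 and 1. Each scan held arrays of 1 group only, so this block cannot separate scan from treatment. A slide block was not run, since each slide holds 1 group.

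Normexp without an offset, added after seeing the data, gave 2364 changed genes, 2 of the 10 higher, and 19 higher and 9 lower in the companion lists. The shares over all genes were 18.3% higher and 22.4% lower. There ADY2 was at -0.27, SFC1 at -0.13, SIP4 at -0.58, ATO2 at -0.45 and ACS1 at -0.17. The pair differences there were -0.27 for MLS1 minus DAL7, 1.44 for ICL1 minus ICL2, -0.84 for MDH2 minus MDH1, -0.85 for MDH2 minus MDH3, 0.19 for ADY2 minus ATO2 and -0.18 for ADY2 minus ATO3, none past the threshold after adjustment in the exact permutation test. This loss of calls rested on control replicates 2 and 3, where the fitted background stood apart: without them 3655 genes changed, 9 of the 10 rose and 1 fell, and 40 companion genes were higher and 9 lower. The shares over all genes were then 39% higher and 23.7% lower. Normexp with an offset of 50 gave pair differences of 0.072, 1.39, -0.89, -0.91, -0.089 and 0.15 in the same order, none past the threshold after adjustment. With and without the offset, ICL1 minus ICL2, MDH2 minus MDH1 and MDH2 minus MDH3 were at the smallest possible exact p before adjustment. Normexp with the offset of 50 gave changes of -0.048 for ACS1, -0.31 for IDP2 and 0.070 for MDH3. Without the same 2 arrays it gave 30 companion genes higher and 14 lower, beside 1561 higher and 1733 lower of all 5825 genes tested. ACS1 was then at -0.056, IDP2 at -0.31 and MDH3 at 0.025. The difference of ADY2 minus ATO2 was -0.35 in the deposited matrix and -0.32 with local background subtracted. Quantile normalization gave -0.074 for ACS1 and -0.41 for IDP2, and cyclic loess gave -0.015 for ACS1, -0.36 for IDP2 and 0.031 for MDH3.

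On the spike-in scale 0 of the 10 genes and 2 companion genes were lower, with and without isopropanol replicate 1. There MDH2 was at 0.27, HXK2 at 0.40, ATO3 at 1.04, ICL2 at 1.02, MDH1 at 1.10, MDH3 at 0.999 and PYC2 at 0.68, and without that replicate ATO3 was at 0.67, ICL2 at 0.59, MDH1 at 0.72, MDH3 at 0.59 and PYC2 at 0.25. Without it MDH2 was at -0.15, and HXK2 was not positive either. The causes of these shifts were not tested. Requiring all arrays above background left SIP4 out, and signal near background limits what SIP4 and ATO2 can show.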
